A study of Drosophila melanogaster with 91 samples.

Results

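The comparison covered 9 of 91 embryos of the fruit fly, Drosophila melanogaster. Each was frozen at a labelled time relative to cellularization and sequenced on its own by CEL-Seq, a method that tags and reads the 3' end of polyadenylated RNA. The 4 embryos labelled 60, 75, 90 and 105 min are called the later embryos. They were compared with the 5 embryos labelled -15, 0, 15, 30 and 45 min, called the earlier embryos. Membership followed the label of each embryo and used no measured value. The labels give no treatment; every embryo came from a laying cage, was freed of its chorion with bleach and was watched under a microscope until frozen. The labels give no strain, genotype, sex or mother for any of the 9 embryos, which shared a library pool of 23 embryos on lane 3.

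The fly egg starts development on RNAs and proteins loaded by the mother, while its nuclei divide in a common cytoplasm with little transcription of their own. Around cellularization, when membranes grow inward and enclose the nuclei, maternal RNAs are degraded and the zygotic genome is transcribed in bulk, a change known as the maternal-to-zygotic transition. Gastrulation follows, in which the mesoderm folds in along the ventral midline, and then the germ band extends and segment boundaries are set. In a whole embryo, fewer cells with a transcript and less of it in each cell cannot be told apart.

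In the later embryos most tested members of the germ plasm, egg activation, glycolysis and heat shock lists fell. The germ plasm gene osk fell by 4.69 ± 0.29 on the log2 scale. Most tested members of the gap, pair-rule, segment polarity, mesoderm, dorsal ectoderm and neuroectoderm lists rose. Some were close to 0 in the earlier embryos and could be tested only because they were high in the later ones. The zinc finger factor salm rose by 8.11 ± 0.70. Levels are given as CPM, a gene's count over all gene counts of the library, scaled to parts per 1000000, with the embryos of a group always in order of labelled time. A log2 fold change is that of the later over the earlier embryos by edgeR, with TMM scaling and its standard error after the ± sign. A gene is called, or said to have risen or fallen, where its edgeR p, adjusted over all genes tested, is under 0.05.

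Genes whose transcripts are known to be made briefly around cellularization were examined first as a check of the labels. nullo, which stabilizes the furrow canals, held 3.54, 9.62, 2.09 and 5.49 CPM in the later embryos, against 0, 0, 88.8, 150.3 and 389.8 CPM in the earlier embryos. bnk (bottleneck), which restrains contraction of the furrow network, held 0, 177, 37.3 and 1.83 CPM in the later embryos, against 0, 0, 62.2, 80.2 and 233 CPM in the earlier embryos. slam, which recruits membrane to the furrow, held 5.56, 2030.2, 608 and 73.9 CPM in the later embryos, against 104, 71.4, 133, 111 and 549 CPM in the earlier embryos. Among the earlier embryos all 3 were highest at 45 min, and nullo and bnk were at 0 at -15 and 0 min. slam and bnk were high again at 75 min but low or absent at 60 min.

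Other members of the cellularization list were highest at 75 min. halo, which controls lipid droplet transport, held 154, 2151, 1016 and 251 CPM in the later embryos, against 2.62, 0, 76.8, 56.3 and 486 CPM in the earlier embryos. dunk, which maintains the basal myosin network, held 12.1, 482, 131 and 61.7 CPM in the later embryos, against 0, 0, 86.6, 36.5 and 441 CPM in the earlier embryos. Sry-alpha, a membrane-associated protein of the actin rings, held 49.0, 745, 581 and 281 CPM in the later embryos, against 0, 5.58, 23.6, 41.9 and 137 CPM in the earlier embryos. Of the 11 members, 6 had their highest level of the 9 embryos at 75 min, 2 at 45 min, and 1 each at -15, 60 and 105 min. The other called members besides Sry-alpha were kuk, a nuclear envelope protein, which rose by 2.10 on the log2 scale, Z600, a brake on mitosis, by 4.07, and Sry-delta, a zinc finger factor, by 1.02. The call of Z600 was lost without the embryo at 30 or 75 min and its log2 fold change was 6.20 without that at 45 min, and that of Sry-delta in 5 of the 9 fits that left out 1 embryo and with spike-in totals. halo and slam were not called, but were called higher without the embryo at 45 min (log2 fold changes 5.12 and 3.09, edgeR adjusted p = 0.00804 and 0.0426), and slam also without that at 60 min. With limma voom halo was called higher too (log2 fold change 6.56). Between the groups 4 members were called higher and 1 lower, beside 23.1% and 25.5% of all genes tested. nullo itself was called lower (log2 fold change -4.15 ± 1.59, edgeR adjusted p = 0.0479), a call that was lost in 7 of the 9 fits that left out 1 embryo each, those at 15 min and later, and that became a log2 fold change of 0.12 with limma voom.

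The embryo labelled 60 min stood apart in the other direction. hh (hedgehog), the signal made by posterior compartment cells, held 335, 33.9, 15.1 and 88.5 CPM in the later embryos, against 0, 0, 4.29, 1.80 and 0 CPM in the earlier embryos. en (engrailed), the selector gene of those cells, had 69.2, 0, 0 and 0.610 CPM in the later embryos, against 0, 0, 0, 0.599 and 0 CPM in the earlier embryos. mid (midline), a T-box gene of the segment boundary and nervous system, had 145, 0, 4.19 and 39.7 CPM in the later embryos, against 0, 0, 3.00, 4.19 and 0 CPM in the earlier embryos, and pnr (pannier), a GATA factor of dorsal ectoderm, had 70.2, 5.04, 0 and 5.49 CPM in the later embryos, against 0, 0, 0, 0 and 0 CPM in the earlier embryos. en, mid and pnr did not pass the low-count filter and were not tested.

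Among the 293 genes (4.53% of those tested) called at least 8-fold higher in the later embryos, 153 had their highest later value at 60 min and 168 their lowest later value at 75 min. Across 6465 genes, the most similar embryo by Spearman's rho of log2(CPM + 1) was 90 min for that at 75 (0.909), 105 min for that at 60 (0.880), 0 min for that at -15 (0.946) and 30 min for that at 15 (0.940). The values are descriptions over genes of shared libraries, not tests. By these genes the order of the embryos differed from the order of their labels, and the groups are therefore named by labelled time and not by stage. Whether a label or a library was exchanged was not tested.

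**Figure D1:**
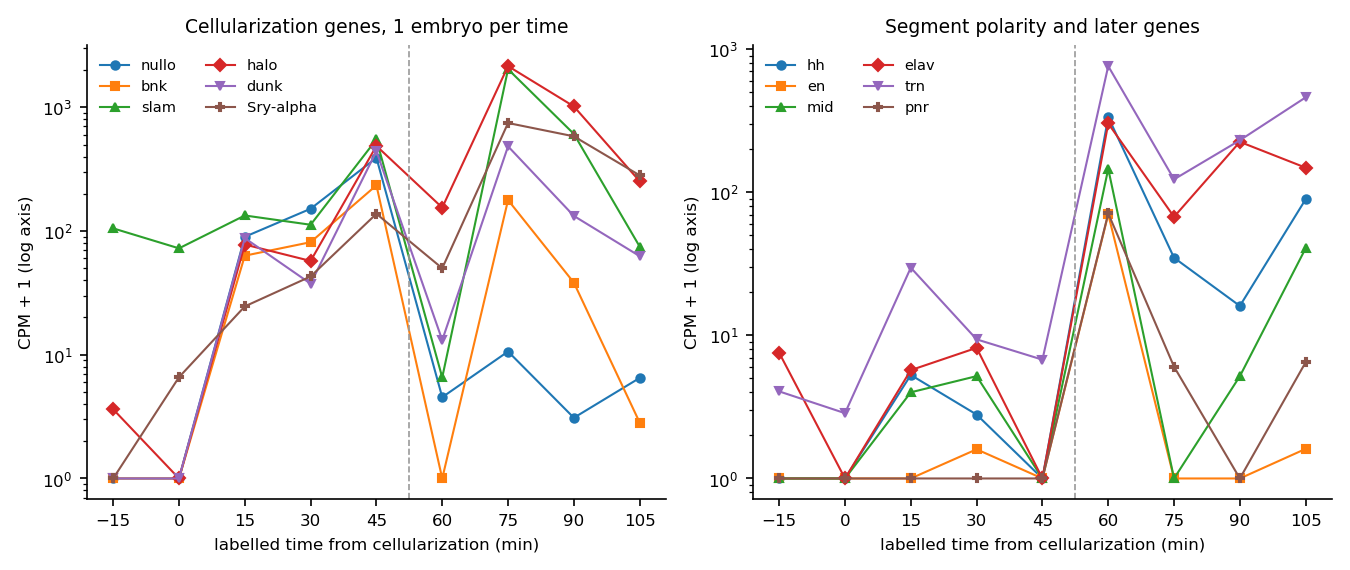
Level of 6 cellularization genes (left) and of 6 genes of segment polarity, neurons and dorsal ectoderm (right) in each of the 9 embryos. The x axis is labelled time in min, the y axis CPM + 1 on a log axis, each point is 1 embryo, and the dashed line parts the earlier from the later embryos. slam, halo and bnk have a second high level at 75 min, and en and pnr are high at 60 min alone.

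The later libraries held 1638267 to 2388874 gene counts and the earlier ones 1213557 to 2687595. The ERCC spike-ins, synthetic RNAs added to each sample, took 3.91 to 4.56% of assigned counts, genes and spike-ins together, in the later embryos and 3.07 to 4.88% in the earlier embryos. The share of gene counts from the mitochondrial genome was 13.8% ± 0.942 (SD, n = 4) in the later embryos and 9.46% ± 2.04 (n = 5) in the earlier embryos, with an exact two-sided permutation p of 0.0159, the smallest that splits of 4 and 5 embryos can give, and 0.0423 after Benjamini-Hochberg adjustment over 8 measures. Whether that share bears on any gene's result was not tested. At 1213557 counts per library, 7196 ± 172 genes were detected in the later embryos and 6985 ± 183 in the earlier embryos (exact permutation p = 0.127). Nothing says whether the embryos had separate mothers. The p-values therefore measure the spread among these 9 embryos, which also holds the change over labelled time inside each group.

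Of 6465 genes tested with edgeR's quasi-likelihood F-test, 3142 (48.6%) had an adjusted p under 0.05. Of these 1494 (23.1% of genes tested) were higher in the later embryos and 1648 (25.5%) were lower, and 979 and 1545 of them by at least 2-fold. The counts of list members given below stand beside these shares over all genes. The balance of rises and falls depended on scaling. With TMM 47.5% of called genes were higher, and the median log2 fold change over all genes was -0.15. With library totals alone 730 genes (11.3%) were higher and 2291 (35.4%) lower, with a median of -0.63. With spike-in totals 422 genes (6.53%) were higher and 2485 (38.4%) lower, with a median of -0.85. The plain CPM of the later and the earlier embryos did not overlap for 2614 genes (40.4%), 667 (10.3%) of them higher and 1947 (30.1%) lower in the later embryos. A gene near 0 in one group could pass the low-count filter only by being high in the other. For such genes the direction of change was close to fixed in advance.

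The counts did not rest on the embryos at 60 and 75 min. Without the embryo at 60 min 1428 genes were called higher and 1675 lower, without that at 75 min 1456 and 1672, and without both, a setting chosen after the data were seen, 1278 and 1594. With labelled time as a covariate beside the group, 275 genes were called higher and 282 lower. The groups are themselves a cut of labelled time, so by design this fit can part group and time only poorly.

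**Figure D2:**
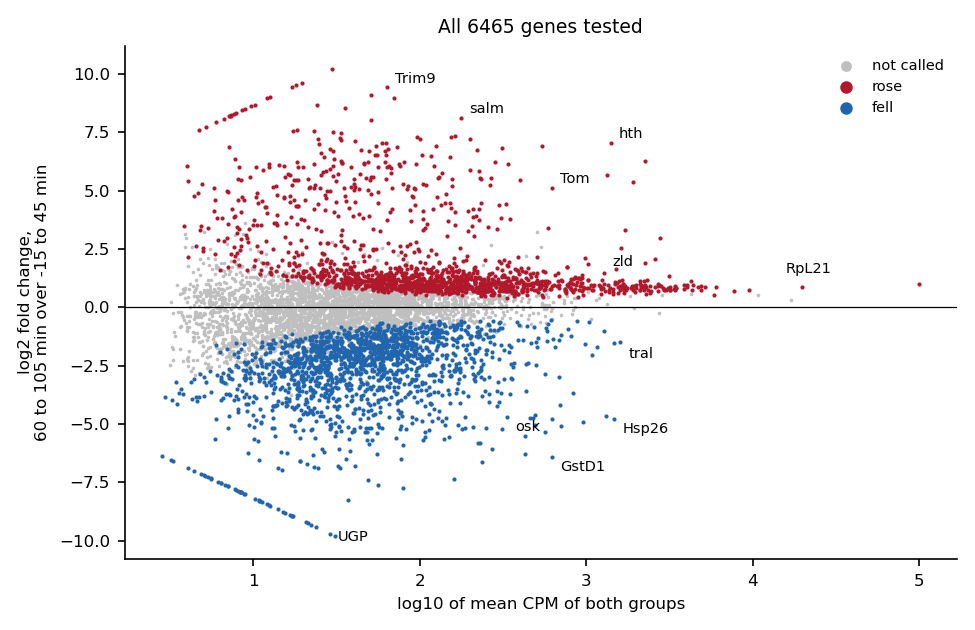
Log2 fold change of the later over the earlier embryos (y axis) against the log10 of the mean CPM of both groups (x axis) for the 6465 genes tested. Red points are the 1494 genes called higher, blue points the 1648 called lower, grey points the rest. The straight rows of points at the left edges are genes at 0 in every embryo of a group, whose fitted value is no measurement of size.

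The transcripts that fell most included metabolic enzymes and genes of the ovary. UGP (FBgn0035978), the UTP-glucose pyrophosphorylase, was at 0 counts in all 4 later embryos, against 61.7, 77.8, 58.8, 47.3 and 42.8 CPM in the earlier embryos, which makes it at least 166-fold lower when 3 counts over the group are taken as the floor. GIIIspla2 (FBgn0030013), a secreted phospholipase A2, had 1 count in the later embryos, against 87.0, 87.1, 66.0, 108 and 22.2 CPM in the earlier embryos, and was 638-fold lower, with a 95% counting interval of 114 to 25236. Klp68D (FBgn0004381), a kinesin-2 motor, had 3 counts in the later embryos, against 81.3, 77.8, 80.6, 67.1 and 24.7 CPM in the earlier embryos, and was 194-fold lower, with a 95% counting interval of 66.2 to 944. Here and below, lower bounds and folds with a counting interval use counts summed over a group and library totals, not TMM. edgeR with TMM gave a 310-fold fall for GIIIspla2 and a 117-fold fall for Klp68D. The intervals cover counting error only.

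yl (FBgn0004649), the oocyte receptor that takes up yolk protein, held 0.505, 15.6, 3.35 and 12.8 CPM in the later embryos, against 1469, 1143, 688, 579.6 and 375 CPM in the earlier embryos. yl fell by 6.27 ± 0.74 on the log2 scale (edgeR adjusted p = 8.56e-05). GstD1 (FBgn0001149), a glutathione S-transferase, held 4.04, 10.5, 18.4 and 7.94 CPM in the later embryos, against 2301, 2847, 568, 371 and 75.0 CPM in the earlier embryos. GstD1 fell by 6.42 ± 1.05 on the log2 scale (edgeR adjusted p = 0.000615). stet (FBgn0020248), a rhomboid-family protease of the germ line, had 0, 0, 1.67 and 0 CPM in the later embryos, against 113, 137, 67.8, 60.5 and 26.4 CPM in the earlier embryos (log2 fold change -6.80 ± 0.88, edgeR adjusted p = 0.000159). The rule by which they were named required every later embryo to lie below every earlier embryo. The call for GstD1 was not made by limma voom, nor were those for Got2 and exu.

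The remaining named falls were olf186-M (-7.37), the carbonic anhydrase CAH2 (-6.51), the mitochondrial aspartate aminotransferase Got2 (-6.50), the cathepsin CtsK1 (-6.09), the sodium-calcium exchanger Calx (-5.86) and exu (-5.68), where each value is a log2 fold change with an edgeR adjusted p between 2.08e-05 and 0.00301. CAH2 had 0, 0, 0 and 2.44 CPM in the later embryos, against 93.1, 47.3, 77.2, 35.3 and 103 CPM in the earlier embryos, and its log2 fold change was -10.07 without the embryo at 105 min.

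Transcripts of the maternal axis and germ plasm list were mostly lower: of 25 members tested, 16 fell, 1 was called higher and 8 were not called, and the median log2 fold change was -3.10 beside -0.15 over all genes. osk (oskar), which assembles the germ plasm at the posterior pole, held 14.7, 27.9, 10.0 and 19.5 CPM in the later embryos, against 689, 642, 734, 606 and 568 CPM in the earlier embryos. osk fell by 4.69 ± 0.29 on the log2 scale (edgeR adjusted p = 4.41e-06). orb, a CPEB-type regulator of translation in the oocyte, held 2.02, 9.62, 10.0 and 4.88 CPM in the later embryos, against 293, 240.0, 286, 254 and 183 CPM in the earlier embryos. orb fell by 4.75 ± 0.39 on the log2 scale (edgeR adjusted p = 1.44e-05). swa (swallow), needed to localize bcd RNA, held 6.57, 16.5, 2.93 and 6.71 CPM in the later embryos, against 187, 281, 237, 199 and 272 CPM in the earlier embryos (log2 fold change -4.37 ± 0.43, edgeR adjusted p = 3.22e-05). osk and swa differed little among the earlier embryos. In all 3 every later embryo was below every earlier one, as in 30.1% of all genes tested.

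spir (spire), an actin nucleator of the oocyte, fell by 4.65 on the log2 scale, nanos, the posterior determinant, by 3.82, gcl (germ cell-less), needed to form the pole cells, by 4.13, and dl (dorsal), the ventral NF-kappaB factor, by 5.18. bcd (bicoid), the anterior morphogen, held 1.52, 98.0, 6.70 and 11.0 CPM in the later embryos, against 536, 208, 441, 551 and 590.0 CPM in the earlier embryos (log2 fold change -3.58 ± 0.88, edgeR adjusted p = 0.00621), and its log2 fold change was -5.71 without the embryo at 75 min. Its value at 75 min was the highest of the later embryos, as it was for osk, swa and 204 of the 538 genes (8.32% of those tested) called at least 8-fold lower. tor and Tl, the terminal and dorsoventral receptors, were not called, with 5.56 to 125 CPM in the later embryos, against 135 to 232 CPM in the earlier embryos for tor and 31.8 to 258 CPM in the later embryos, against 153 to 242 CPM in the earlier embryos for Tl, but tor was called lower without the embryo at 75 min (log2 fold change -2.32, edgeR adjusted p = 0.00333) and with library or spike-in totals. The DESeq2 Wald test and limma voom called tor lower too (-1.43 and -1.94). stau (staufen), an RNA-binding protein that anchors localized RNAs, was the member called higher (log2 fold change 0.81 ± 0.20, edgeR adjusted p = 0.00525), but not with library totals or spike-in totals.

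Of 20 regulators of egg activation and RNA clearance tested, 15 fell and 1 was called higher, with 3 falls when labelled time was a covariate, and a median log2 fold change of -1.45 without it. gnu, a subunit of the PAN GU kinase that starts maternal RNA translation and decay, held 10.6, 32.1, 5.02 and 0 CPM in the later embryos, against 681, 524, 606, 725 and 510.1 CPM in the earlier embryos. gnu had a log2 fold change of -5.20 ± 0.75 (edgeR adjusted p = 0.000286). smg (Smaug), the RNA-binding protein that marks maternal RNAs for decay, held 33.3, 312, 47.7 and 79.4 CPM in the later embryos, against 1332, 989.7, 1351, 1178 and 1437 CPM in the earlier embryos. smg fell by 2.99 ± 0.56 on the log2 scale (edgeR adjusted p = 0.00129). tral (trailer hitch), a P-body protein, held 523, 831, 683 and 564 CPM in the later embryos, against 2723, 2441, 2707, 2597 and 2200.1 CPM in the earlier embryos (log2 fold change -1.49 ± 0.15, edgeR adjusted p = 3.26e-05). CanB2, a calcineurin subunit, and mtrm, a Polo inhibitor of the oocyte, fell by 3.38 and 4.10 on the log2 scale. smg stayed near its earlier level up to 45 min and was highest among the later embryos at 75 min. Other members of the same clearance machinery were not called: pum (Pumilio) had 253 to 734 CPM in the later embryos, against 741 to 958 CPM in the earlier embryos and brat had 348 to 659 CPM in the later embryos, against 489 to 778 CPM in the earlier embryos. Without the embryo at 75 min pum was called lower (log2 fold change -0.82, edgeR adjusted p = 0.00315). It was also called lower with library totals (-0.94), spike-in totals (-1.18) and limma voom (-0.55). The same held without the embryos at 60 and 75 min together (-0.71). Not1, a scaffold of the deadenylase, was called higher (log2 fold change 0.68), but the call was lost without the embryo at -15, 0 or 75 min, and its log2 fold change was -0.01 with spike-in totals.

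The falls followed at least 2 courses within the earlier embryos, a description made after the values were seen. BicC, an RNA-binding protein of the oocyte, had 2715, 2334, 633, 274 and 92.3 CPM at -15, 0, 15, 30 and 45 min, and then 16.2, 63.7, 31.8 and 17.1 CPM at 60 to 105 min. exu (exuperantia), which localizes bcd RNA in the oocyte, had 284, 608, 94.8, 32.9 and 9.06 CPM at the same times and then 0, 2.75, 5.86 and 2.44 CPM. cort, an activator of the anaphase-promoting complex in female meiosis, had 61.2, 43.9, 10.7, 5.39 and 5.77 CPM and then 0, 0, 1.67 and 0 CPM. In all 3 the levels at 15 to 45 min were below those at -15 and 0 min. In contrast gcl had 189, 195, 248, 242 and 246 CPM over the earlier embryos and 7.07, 17.4, 10.0 and 1.83 CPM in the later ones, with no decline before 60 min. Over the 538 genes called at least 8-fold lower, the summed level was 89804, 99777, 68892, 66118 and 41683 CPM from -15 to 45 min. Within the earlier embryos the sum was thus lower at 45 min than at -15 min. From 60 to 105 min it was 2354, 4384, 2648 and 2606 CPM, a fall fixed in advance because the genes were chosen by it.

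**Figure D3:**
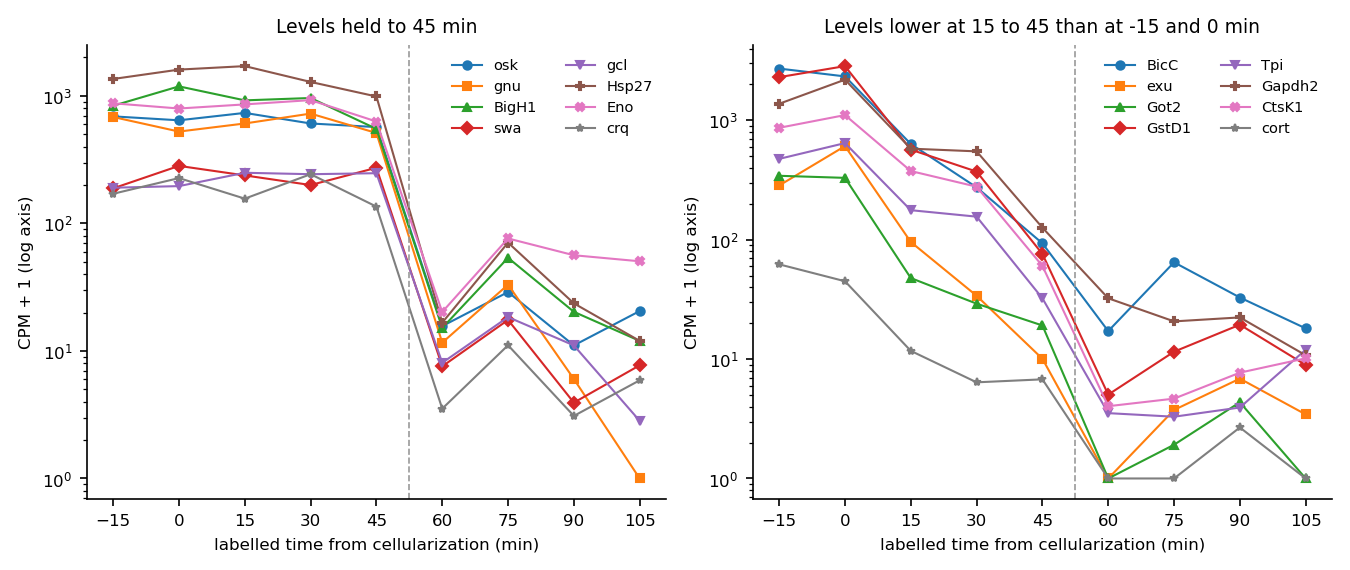
Levels of 8 transcripts with their largest drop between 45 and 60 min (left) and of 8 that were lower by 15 to 45 min than at -15 and 0 min (right), by labelled time in min (x axis), with CPM + 1 on a log y axis and 1 embryo per point. In the right panel BicC has 2715 CPM at -15 min and 92.3 CPM at 45 min.

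The chromatin and genome activation list held 9 rises and 5 falls among 21 tested, beside 23.1% and 25.5% of all genes. Its share of falls was thus near that of all genes. Jabba, which anchors histones on lipid droplets, held 9.60, 21.5, 20.5 and 26.9 CPM in the later embryos, against 1412, 1449, 1234, 998 and 505 CPM in the earlier embryos. Jabba fell by 5.36 ± 0.39 on the log2 scale (edgeR adjusted p = 6.96e-06). BigH1, the linker histone of the egg and early embryo, held 14.1, 52.7, 19.3 and 11.0 CPM in the later embryos, against 835, 1185, 920.4, 960.5 and 549.6 CPM in the earlier embryos. BigH1 fell by 4.73 ± 0.45 on the log2 scale (edgeR adjusted p = 2.69e-05). Of the checkpoint kinases, grp (Chk1), which slows the last nuclear cycles, and lok (Chk2), which responds to DNA damage, fell by 2.00 and 1.78 on the log2 scale. zld (Zelda), the pioneer factor of early zygotic genes, was higher, with 1396, 2095, 1700.0 and 1643 CPM in the later embryos, against 751, 854, 990.3, 823 and 823 CPM in the earlier embryos (log2 fold change 1.49 ± 0.14, edgeR adjusted p = 2.45e-05). grh (grainy head), an epithelial transcription factor, held 133, 114, 72.0 and 194 CPM in the later embryos, against 0, 1.12, 2.57, 4.19 and 0 CPM in the earlier embryos. grh rose by 6.79 ± 0.70 on the log2 scale (edgeR adjusted p = 4.25e-05). HmgD, a chromatin protein of the early embryo, rose by 0.82, and insv, a repressor, by 1.89 on the log2 scale, but neither was called higher with spike-in totals. With spike-in totals 4 members were called higher and 6 lower, beside 6.53% and 38.4% of all genes, and zld and grh kept their calls.

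Glycolytic enzymes fell in 8 of 11 members tested and rose in none, with a median log2 fold change of -2.54. Hex-A (hexokinase) held 3.03, 6.41, 5.44 and 11.6 CPM in the later embryos, against 250.1, 273, 303, 269 and 229 CPM in the earlier embryos. Hex-A fell by 4.86 ± 0.34 on the log2 scale (edgeR adjusted p = 6.96e-06). Eno (enolase) held 19.2, 75.1, 55.3 and 49.4 CPM in the later embryos, against 873, 794, 856, 925 and 628 CPM in the earlier embryos (log2 fold change -3.57 ± 0.32, edgeR adjusted p = 1.97e-05). Gapdh2 held 31.3, 19.7, 21.3 and 9.77 CPM in the later embryos, against 1377, 2192, 579, 549 and 125 CPM in the earlier embryos. Gapdh2 fell by 5.04 ± 0.76 on the log2 scale (edgeR adjusted p = 0.000389). Tpi (triose phosphate isomerase) held 2.53, 2.29, 2.93 and 11.0 CPM in the later embryos, against 475, 644, 176, 155 and 31.3 CPM in the earlier embryos. Tpi fell by 5.53 ± 0.90 on the log2 scale (edgeR adjusted p = 0.000608). Pglym78 and Gapdh1 fell by 2.99 and 2.54 on the log2 scale. Hex-A stayed between 229 and 303 CPM up to 45 min and Eno was lowest of the earlier embryos at 45 min, while Gapdh2 and Tpi were lower at 15 to 45 min than at -15 and 0 min. Ald1 (aldolase), with 356 to 587 CPM in the later embryos, against 613 to 825 CPM in the earlier embryos, was not called, though it was called lower with library totals (log2 fold change -0.51) and spike-in totals (-0.73).

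Of the heat shock and chaperone genes 8 of 11 tested fell and none rose, with a median of -2.22. Hsp26, a small heat shock protein stored in the egg, held 39.4, 126.5, 92.5 and 43.3 CPM in the later embryos, against 3420.5, 5401, 2672, 2296 and 617 CPM in the earlier embryos (log2 fold change -4.79 ± 0.59, edgeR adjusted p = 0.000116). Hsp27, another, held 15.7, 69.6, 22.6 and 11.0 CPM in the later embryos, against 1355, 1604, 1709, 1284 and 987 CPM in the earlier embryos. Hsp27 fell by 5.09 ± 0.49 on the log2 scale (edgeR adjusted p = 3.07e-05). Hsp83 (Hsp90) and the mitochondrial chaperonin Hsp60A fell by 2.84 and 5.05 on the log2 scale. Hsp70Aa and Hsp70Ab, near-identical copies between which reads may be split, were not called, but both were called lower without the embryo at 45 min (log2 fold changes -1.49 and -1.61). Hsp70Ab was also called lower without the embryo at 60 min (-1.88), with library totals (-1.78) and with spike-in totals (-2.095).

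Among the 12 largest rises were genes close to 0 in the earlier embryos. net (FBgn0002931), a basic helix-loop-helix factor, had 63.7, 57.7, 49.8 and 65.9 CPM in the later embryos, against 0 counts in all 5 earlier embryos, at least 199-fold higher with 3 counts over the group as the floor. Trim9 (FBgn0051721), a ubiquitin ligase of neurons, had 259, 37.6, 123 and 89.1 CPM in the later embryos, against 2 counts in the earlier embryos, and was 643-fold higher, with a 95% counting interval of 178 to 5319. Socs36E (FBgn0041184), an inhibitor of JAK/STAT signalling, had 96.0, 145, 169 and 148 CPM in the later embryos, against 3 counts in the earlier embryos, and was 478-fold higher, with a 95% counting interval of 163 to 2320.0. cv-2 (FBgn0000395), a secreted BMP-binding protein, had 75.3, 38.0, 55.3 and 115 CPM in the later embryos, against 2 counts in the earlier embryos, and was 343-fold higher, with a 95% counting interval of 94.6 to 2843. These folds use library totals. With TMM, edgeR gave 691-fold for Trim9, 507-fold for Socs36E and 376-fold for cv-2.

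salm (FBgn0261648), a zinc finger homeotic factor, held 365, 334, 305 and 400.4 CPM in the later embryos, against 3.06, 0.372, 0, 5.39 and 0 CPM in the earlier embryos. salm rose by 8.11 ± 0.70 on the log2 scale (edgeR adjusted p = 1.63e-05). disco (FBgn0000459), a zinc finger factor, held 138, 15.1, 70.7 and 44.6 CPM in the later embryos, against 0.437, 0, 1.29, 0.599 and 0 CPM in the earlier embryos (log2 fold change 7.46 ± 0.86, edgeR adjusted p = 8.03e-05). uif (FBgn0031879), an apical membrane protein of epithelia, had 98.0, 33.0, 52.3 and 54.9 CPM in the later embryos, against 0, 0.372, 0, 1.80 and 0 CPM in the earlier embryos. uif rose by 7.51 ± 0.79 on the log2 scale (edgeR adjusted p = 4.77e-05). lncRNA:bxd, a noncoding RNA of the bithorax complex, had 62.6, 62.8, 46.5 and 89.7 CPM in the later embryos, against 0, 0, 0.429, 0 and 3.30 CPM in the earlier embryos. lncRNA:bxd rose by 7.24 ± 0.83 on the log2 scale (edgeR adjusted p = 7.85e-05). The rule by which all 4 were named required that the later and earlier embryos not overlap. Of them disco and uif were lowest among the later embryos at 75 min.

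Gap and head genes, which respond to the maternal gradients, rose in 12 of 16 members tested and fell in 2, with a median log2 fold change of 4.86. Here and in the lists below, members near 0 in the earlier embryos were tested only because they were high in the later ones. knrl (knirps-like) held 152, 13.7, 104 and 136 CPM in the later embryos, against 0, 0.744, 0.429, 1.20 and 0 CPM in the earlier embryos (log2 fold change 8.04 ± 0.86, edgeR adjusted p = 5.37e-05). kni (knirps), the abdominal gap factor, held 125, 172, 198 and 219 CPM in the later embryos, against 0, 0, 7.72, 2.40 and 28.8 CPM in the earlier embryos. kni rose by 5.12 ± 1.02 on the log2 scale (edgeR adjusted p = 0.00184). Kr (Kruppel), the central gap factor, held 109, 237, 96.7 and 201 CPM in the later embryos, against 0, 0.744, 9.44, 3.59 and 74.2 CPM in the earlier embryos (log2 fold change 3.71 ± 1.12, edgeR adjusted p = 0.0175; 5.97 without the embryo at 45 min). nub and pdm2, neighbouring POU factors, rose by 7.01 and 5.31 on the log2 scale, and ems (empty spiracles), a head gap factor with 51.5, 34.4, 39.8 and 12.8 CPM in the later embryos, against 2 counts in the earlier embryos, was 182-fold higher, with a 95% counting interval of 50.0 to 1512. Kr and kni were present at 45 min, unlike knrl. cnc, a bZIP factor of the head also present in the earlier embryos, fell by 1.82. hb (hunchback), which has a maternal and a zygotic transcript, had 69.2, 151, 101 and 59.2 CPM in the later embryos, against 189, 269, 213, 269 and 168 CPM in the earlier embryos. hb was called lower (log2 fold change -0.76 ± 0.27, edgeR adjusted p = 0.0369), but the call was lost in 6 of the 9 fits that left out 1 embryo, those at 0, 15, 30, 60, 90 and 105 min. The call of Kr was lost without the embryos at 60 and 75 min together. tll and gt were not called, with 25.8 to 192 CPM in the later embryos, against 0 to 77.5 CPM in the earlier embryos for tll and 53.5 to 184 CPM in the later embryos, against 0 to 90.6 CPM in the earlier embryos for gt, but without the embryo at 45 min both were called higher (log2 fold changes 4.05 and 4.56). With limma voom both were called higher as well (4.92 and 5.62).

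Pair-rule genes, which define alternate segments, rose in 9 of 10 members tested, with a median of 4.30. opa (odd-paired) held 282, 233, 314 and 394 CPM in the later embryos, against 1.31, 0, 8.15, 3.59 and 0 CPM in the earlier embryos. opa rose by 7.28 ± 0.73 on the log2 scale (edgeR adjusted p = 3.86e-05). odd (odd-skipped) held 207, 89.3, 122 and 71.4 CPM in the later embryos, against 0.437, 1.49, 2.14, 5.39 and 2.47 CPM in the earlier embryos (log2 fold change 6.23 ± 0.58, edgeR adjusted p = 2.57e-05). ftz (fushi tarazu) held 95.5, 78.8, 162 and 85.5 CPM in the later embryos, against 0, 0, 15.0, 11.4 and 7.42 CPM in the earlier embryos. ftz rose by 4.48 ± 0.91 on the log2 scale (edgeR adjusted p = 0.00213). prd (paired) held 53.5, 9.16, 69.5 and 47.6 CPM in the later embryos, against 0, 0, 3.43, 0 and 5.77 CPM in the earlier embryos. prd rose by 5.23 ± 1.08 on the log2 scale (edgeR adjusted p = 0.00224). bowl, a relative of odd, rose by 5.07, hry (hairy) by 4.11 and eve (even-skipped) by 3.34 on the log2 scale. ftz was at 0 at -15 and 0 min and at 7.42 to 15.0 CPM at 15 to 45 min.

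Segment polarity genes, which act within each segment after the pair-rule genes, rose in 7 of 8 members tested, with a median of 5.86, and 11 others of the 19 in the table were too low to be tested. Members such as ptc, ci and hh passed the filter through the later embryos alone, so a rise among them was close to fixed in advance. ptc (patched), the Hedgehog receptor, held 270.3, 89.3, 231 and 211 CPM in the later embryos, against 0.437, 0, 5.15, 3.59 and 0 CPM in the earlier embryos (log2 fold change 7.21 ± 0.78, edgeR adjusted p = 5.85e-05). nkd (naked cuticle), a Wnt antagonist, held 878, 316, 414 and 627 CPM in the later embryos, against 3.94, 1.86, 12.9, 7.78 and 28.8 CPM in the earlier embryos. nkd rose by 6.25 ± 0.70 on the log2 scale (edgeR adjusted p = 6.99e-05). ci (cubitus interruptus), the transcription factor of the Hedgehog pathway, held 234, 60.0, 78.3 and 114 CPM in the later embryos, against 0.437, 0.372, 2.57, 4.79 and 0 CPM in the earlier embryos. ci rose by 6.72 ± 0.77 on the log2 scale (edgeR adjusted p = 7.78e-05). hh, described above, had a log2 fold change of 7.05 (edgeR adjusted p = 0.000727), and fz (frizzled), a Wnt receptor supplied by the mother, was not called with 127 to 334 CPM in the later embryos, against 263 to 337 CPM in the earlier embryos. Of members with any count, 13 had their highest value at 60 min.

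Of the Hox list 6 of 7 members tested rose, with a median of 5.14. hth (homothorax), a cofactor that brings Extradenticle into the nucleus, reached the highest level of the list, with 3471, 1485, 2474 and 3648 CPM in the later embryos, against 6.56, 7.81, 54.9, 39.5 and 40.4 CPM in the earlier embryos (log2 fold change 7.06 ± 0.67, edgeR adjusted p = 2.69e-05). Dfd (Deformed), the Hox gene of the head, had 18.7, 13.7, 10.9 and 14.7 CPM in the later embryos, against 0 counts in all 5 earlier embryos, at least 48.5-fold higher. Ubx (Ultrabithorax) held 53.5, 30.7, 14.7 and 27.5 CPM in the later embryos, against 0, 0, 1.72, 2.40 and 0 CPM in the earlier embryos. Ubx rose by 5.70 ± 0.93 on the log2 scale (edgeR adjusted p = 0.000615). Antp (Antennapedia) held 110.1, 24.3, 7.95 and 52.5 CPM in the later embryos, against 0.875, 4.09, 3.43, 0.599 and 0 CPM in the earlier embryos (log2 fold change 5.14 ± 0.90, edgeR adjusted p = 0.000906), with its highest value at 60 min. abd-A (abdominal-A) held 121, 16.0, 10.5 and 18.3 CPM in the later embryos, against 3.06, 0.744, 0.429, 0.599 and 4.12 CPM in the earlier embryos. abd-A rose by 5.13 ± 0.97 on the log2 scale (edgeR adjusted p = 0.00137). abd-A, too, was highest at 60 min, and of all 10 members 8 were. Abd-B was not called, with 0 to 38.9 CPM in the later embryos, against 0 to 9.06 CPM in the earlier embryos, but was called higher without the embryo at 75 min (log2 fold change 4.05).

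**Figure D4:**
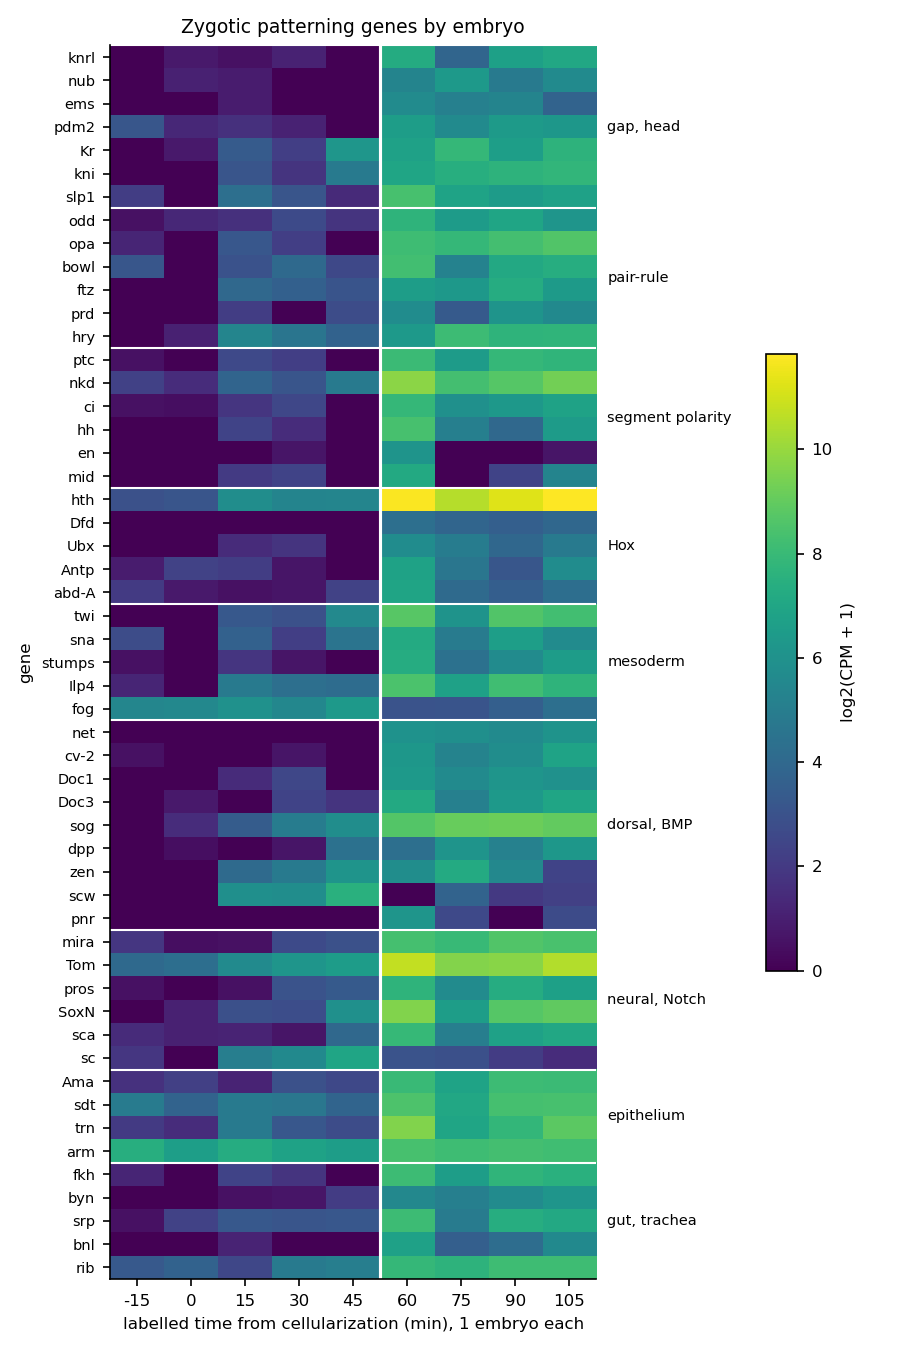
Level of zygotic patterning genes (rows, grouped by role) in each of the 9 embryos (columns, labelled time in min), as log2(CPM + 1) by colour, with a white line between the earlier embryos on the left and the later embryos on the right. Kr, kni, zen, scw and sc have signal before 60 min, scw and sc are high at 45 min and low after it, and en and pnr are coloured at 60 min.

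Mesoderm genes rose in 9 of 14 members tested and fell in 1, with a median of 4.67. Without the embryo at 75 min 15 of 19 tested rose, beside 21.9% of all genes. That embryo had the lowest summed level of the list among the later embryos, 371 CPM. Leaving it out let members near 0 in the earlier embryos pass the filter through the other later embryos. Their rise was close to fixed in advance, so 15 of 19 adds no support to 9 of 14. twi (twist), the factor that specifies mesoderm, held 435, 65.5, 395 and 305 CPM in the later embryos, against 0, 0, 8.58, 6.59 and 47.0 CPM in the earlier embryos (log2 fold change 5.21 ± 1.15, edgeR adjusted p = 0.00327). sna (snail), which represses other fates there, held 152, 29.3, 98.4 and 50.7 CPM in the later embryos, against 5.68, 0, 11.6, 3.59 and 22.2 CPM in the earlier embryos. sna rose by 3.83 ± 0.88 on the log2 scale (edgeR adjusted p = 0.00419). stumps, an adaptor of FGF signalling, held 161, 20.6, 50.7 and 92.8 CPM in the later embryos, against 0.437, 0, 2.57, 0.599 and 0 CPM in the earlier embryos. stumps rose by 7.14 ± 0.89 on the log2 scale (edgeR adjusted p = 0.000118). pyr (pyramus), an FGF ligand, held 75.8, 5.50, 69.1 and 54.9 CPM in the later embryos, against 1.75, 0.744, 2.57, 0 and 0.824 CPM in the earlier embryos (log2 fold change 5.82 ± 0.85, edgeR adjusted p = 0.000296). Ilp4, an insulin-like peptide, rose by 4.75 and Traf4, an adaptor protein, by 5.51 on the log2 scale. The first 4 named and Ilp4 were lowest at 75 min among the later embryos. fog, the secreted signal for the folding of the ventral furrow, was lower, with 7.07, 7.33, 10.9 and 18.9 CPM in the later embryos, against 42.4, 44.3, 63.0, 43.7 and 80.8 CPM in the earlier embryos. fog fell by 1.83 ± 0.42 on the log2 scale (edgeR adjusted p = 0.00401). Mef2, a muscle factor, was not called, with 59.1, 5.04, 2.09 and 9.77 CPM in the later embryos, against 86.1, 94.1, 106, 117 and 64.3 CPM in the earlier embryos. Mef2 was called lower without the embryo at 60 min (log2 fold change -3.63, edgeR adjusted p = 0.000341). It was also called lower with limma voom (-3.055), the DESeq2 Wald test (-1.71), library totals (-2.30) and spike-in totals (-2.53).

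The dorsal ectoderm and BMP list rose in 17 of 27 members tested and fell in 2, with a median of 4.16. Its 3 members at 0 in the earlier embryos had lower bounds of 5.33 to 7.63 on the log2 scale. All lie above that median, so setting these members at their bounds could not change it. Of the ligands and their regulators, dpp, the main BMP ligand, held 19.2, 68.3, 35.6 and 75.7 CPM in the later embryos, against 0, 0.372, 0, 0.599 and 20.6 CPM in the earlier embryos (log2 fold change 4.15 ± 1.23, edgeR adjusted p = 0.0157; 7.85 without the embryo at 45 min). Its inhibitor sog held 404, 542, 586 and 504 CPM in the later embryos, against 0, 1.86, 9.86, 29.9 and 55.2 CPM in the earlier embryos. sog rose by 5.25 ± 0.96 on the log2 scale (edgeR adjusted p = 0.00114). scw (screw), the partner ligand, was not called, with 0, 12.8, 2.93 and 3.66 CPM in the later embryos, against 0, 0, 58.3, 54.5 and 182 CPM in the earlier embryos. Of the other members, Doc1 and Doc3, T-box factors of the amnioserosa, rose by 6.18 and 6.69 on the log2 scale, egr (eiger), a TNF ligand, by 6.02, and Ance, a peptidase of the amnioserosa, by 4.23. cbt (cabut), a zinc finger factor, fell by 4.21. The target zen was not called with 54.1, 149, 44.4 and 4.27 CPM in the later embryos, against 0, 0, 15.9, 27.5 and 68.4 CPM in the earlier embryos. The receptors tkv and put were not called, with 30.6 to 78.8 CPM in the later embryos, against 48.1 to 75.9 CPM in the earlier embryos for tkv and 51.9 to 108 CPM in the later embryos, against 44.9 to 123 CPM in the earlier embryos for put. put was called higher without the embryo at 0 min (log2 fold change 0.90) and tkv without that at 90 min (0.76). Dad, the inhibitory SMAD, was lower, with 2 counts in the later embryos and 14.0, 15.3, 18.9, 32.9 and 19.0 CPM in the earlier embryos, 78.4-fold lower with library totals, with a 95% counting interval of 21.4 to 652. With TMM, edgeR gave 50.0-fold. scw and zen were present at 15 to 45 min, while sog and dpp were higher at 75 to 105 min than at 45 min.

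Neuroectoderm, neuroblast and Notch pathway genes rose in 16 of 22 members tested and fell in none, with a median of 3.22. mira (miranda), which carries fate determinants in dividing neuroblasts, held 321, 246, 392 and 341 CPM in the later embryos, against 2.62, 0.372, 0.429, 5.39 and 6.59 CPM in the earlier embryos (log2 fold change 7.36 ± 0.61, edgeR adjusted p = 1.46e-05). Its cargo pros (prospero) held 208, 51.3, 159 and 106 CPM in the later embryos, against 0.437, 0, 0.429, 7.19 and 9.06 CPM in the earlier embryos. pros rose by 5.97 ± 0.94 on the log2 scale (edgeR adjusted p = 0.000495). Tom, a Bearded-family inhibitor of Delta endocytosis, held 1702, 797, 848 and 1439 CPM in the later embryos, against 15.7, 18.6, 50.2, 70.1 and 91.5 CPM in the earlier embryos. Tom rose by 5.12 ± 0.56 on the log2 scale (edgeR adjusted p = 6.00e-05). SoxN, a Sox factor of the neuroectoderm, held 767, 96.2, 413 and 499 CPM in the later embryos, against 0, 1.12, 6.43, 5.99 and 60.2 CPM in the earlier embryos (log2 fold change 5.54 ± 1.16, edgeR adjusted p = 0.00254). E(spl)m7-HLH, a Notch target, rose by 5.49, the ligand Delta by 1.46 and the receptor N (Notch) by 0.70 on the log2 scale, which became -0.01 for N with spike-in totals. The proneural gene sc (scute), which is also an X-linked signal in sex determination, was not called, with 7.07, 6.41, 3.35 and 1.83 CPM in the later embryos, against 2.62, 0, 32.6, 48.5 and 124 CPM in the earlier embryos. sc was higher at 15 to 45 min than at any later time, and was called lower without the embryo at 0 min (log2 fold change -3.06, edgeR adjusted p = 0.0208), with spike-in totals (-3.15) and with the DESeq2 Wald test (-2.71).

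Junction and adhesion genes of the extending germ band rose in 13 of 18 members tested and fell in none, with a median of 1.19; with spike-in totals 7 rose and 2 fell. Ama (amalgam), a secreted immunoglobulin-domain protein, held 262, 117, 273 and 266 CPM in the later embryos, against 2.19, 3.72, 1.29, 6.59 and 4.94 CPM in the earlier embryos. Ama rose by 6.48 ± 0.47 on the log2 scale (edgeR adjusted p = 6.96e-06). sdt (stardust), a scaffold of the apical Crumbs complex, held 363, 136, 322 and 331 CPM in the later embryos, against 28.9, 12.7, 28.3, 24.6 and 13.2 CPM in the earlier embryos. sdt rose by 4.24 ± 0.39 on the log2 scale (edgeR adjusted p = 2.16e-05). trn (tartan), a leucine-rich repeat receptor of compartment boundaries, held 762, 122, 230.2 and 460.2 CPM in the later embryos, against 3.06, 1.86, 28.7, 8.38 and 5.77 CPM in the earlier embryos (log2 fold change 5.89 ± 0.81, edgeR adjusted p = 0.000212). arm (armadillo), the fly beta-catenin, which the mother supplies, held 329, 282, 312 and 289.9 CPM in the later embryos, against 172, 97.1, 161, 111 and 96.4 CPM in the earlier embryos. arm rose by 1.74 ± 0.23 on the log2 scale (edgeR adjusted p = 0.000162). Ama and trn were low in every earlier embryo, whereas arm was present in all of them.

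In the gut list fkh (forkhead), a factor of both gut ends, held 276, 94.4, 214 and 183 CPM in the later embryos, against 1.31, 0, 4.29, 2.40 and 0 CPM in the earlier embryos. fkh rose by 7.32 ± 0.71 on the log2 scale (edgeR adjusted p = 3.00e-05). byn (brachyenteron), a T-box factor of the hindgut, held 45.0, 33.0, 51.9 and 70.2 CPM in the later embryos, against 0, 0, 0.429, 0.599 and 3.30 CPM in the earlier embryos (log2 fold change 6.60 ± 0.82, edgeR adjusted p = 0.000123). srp (serpent), a GATA factor of endoderm and blood, held 276, 29.3, 167 and 138 CPM in the later embryos, against 0.437, 4.09, 8.58, 7.78 and 8.24 CPM in the earlier embryos. srp rose by 5.27 ± 0.74 on the log2 scale (edgeR adjusted p = 0.000234). These were 3 rises among 6 members tested, with 2 falls, raw and cad, beside 23.1% and 25.5% of all genes tested. raw fell by 2.44 on the log2 scale, and by 4.01 without the embryo at 60 min. cad (caudal), the posterior factor whose RNA is maternal at first, was lower, with 2.53, 37.1, 11.3 and 7.32 CPM in the later embryos, against 236, 224, 279, 287 and 189 CPM in the earlier embryos. cad fell by 3.61 ± 0.56 on the log2 scale (edgeR adjusted p = 0.000449). All 4 tested members of the trachea and EGF list rose: rib (ribbon) by 4.38, spi (spitz), the EGF ligand, by 2.09, and aos (argos), its inhibitor, by 3.77 on the log2 scale, and bnl (branchless), the FGF ligand of tracheal branching, was 148-fold higher, with a 95% counting interval of 50.1 to 719.

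Sex determination and dosage compensation genes gave 6 rises and 2 falls among 14 tested, beside 23.1% and 25.5% of all genes. lncRNA:roX1, a noncoding RNA of the male X chromosome complex, held 630.5, 244, 826 and 557 CPM in the later embryos, against 4.81, 5.95, 25.3, 45.5 and 110.4 CPM in the earlier embryos (log2 fold change 4.39 ± 0.82, edgeR adjusted p = 0.00132). Sxl (Sex-lethal), the switch gene of female fate, held 171, 136, 1423 and 198 CPM in the later embryos, against 112, 136, 73.3, 79.0 and 396 CPM in the earlier embryos. Sxl rose by 2.04 ± 0.75 on the log2 scale (edgeR adjusted p = 0.0408). lncRNA:roX1 was higher in every later embryo than in any earlier one, as were 10.3% of all genes tested. The groups overlapped for Sxl, which reached its highest level at 90 min. The call of Sxl was lost without the embryo at -15, 0, 15, 30 or 90 min, with a log2 fold change of 0.56 without the last, and with library or spike-in totals. gro, a corepressor, rose by 1.00, and mle and mof, a helicase and an acetyltransferase of the dosage compensation complex, by 1.67 and 1.58 on the log2 scale, but these 3 were not called with spike-in totals. msl-1 and tra2 fell by 1.28 and 2.51 on that scale. The labels give no sex, so these values cannot be set beside it.

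The cell cycle list gave 11 rises and 9 falls among 32 tested, beside 23.1% and 25.5% of all genes, and 2 rises and 18 falls with spike-in totals, beside 6.53% and 38.4%. stg (string), the Cdc25 phosphatase whose maternal RNA is replaced by patterned zygotic RNA, held 822, 347, 134 and 202 CPM in the later embryos, against 1401, 1504, 1763, 1569 and 1717 CPM in the earlier embryos (log2 fold change -1.55 ± 0.46, edgeR adjusted p = 0.0156; -2.37 without the embryo at 60 min). CycB (cyclin B) held 394, 679, 395 and 228 CPM in the later embryos, against 1966, 1354, 2265, 2251 and 1615 CPM in the earlier embryos. CycB fell by 1.69 ± 0.27 on the log2 scale (edgeR adjusted p = 0.000605). RnrL, a subunit of ribonucleotide reductase, held 4.04, 2.29, 9.21 and 2.44 CPM in the later embryos, against 201, 209, 108, 154 and 71.7 CPM in the earlier embryos (log2 fold change -4.52 ± 0.52, edgeR adjusted p = 7.58e-05). dap (dacapo), the inhibitor of cyclin E kinase, held 18.7, 16.0, 4.60 and 15.9 CPM in the later embryos, against 318, 375, 287, 219 and 101 CPM in the earlier embryos. dap fell by 3.74 ± 0.48 on the log2 scale (edgeR adjusted p = 0.000143). In RnrL and dap every later embryo lay below every earlier one, as in 30.1% of all genes tested. Cdk2 fell by 1.85, and CycB3 and fzy, the mitotic activator of the anaphase-promoting complex, rose by 0.88 and 1.03 on the log2 scale, calls that were lost with spike-in totals. trbl (tribbles), which slows division of ventral cells by degrading String, held 70.2, 209, 241 and 172 CPM in the later embryos, against 39.4, 41.3, 78.5, 33.5 and 65.9 CPM in the earlier embryos. trbl rose by 2.20 ± 0.36 on the log2 scale (edgeR adjusted p = 0.000622). CycE (cyclin E) was higher, with 918, 808, 1179 and 1385 CPM in the later embryos, against 398, 507, 466, 390.4 and 494 CPM in the earlier embryos (log2 fold change 1.74 ± 0.20, edgeR adjusted p = 7.21e-05). CycE and trbl kept their calls with library totals and with spike-in totals.

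Fewer ribosomal protein and respiratory chain genes were called higher with library or spike-in totals than with TMM. With TMM 77 of 80 ribosomal protein genes were called higher, median 0.82; with library totals 26, median 0.33; and with spike-in totals 1, median 0.13. RpL21 had 22661, 21640.0, 22362 and 24065 CPM in the later embryos, against 16010.0, 13648, 17571, 18376 and 19981 CPM in the earlier embryos. RpL15, RpL4 and RpS3A rose by 1.15, 0.97 and 0.87 on the log2 scale with TMM, and of these 4 genes only RpL15 was also called with spike-in totals. Of 62 oxidative phosphorylation genes, 34 were called higher and 6 lower with TMM, median 0.60, but 4 and 14 with library totals, median 0.12, and 0 and 14 with spike-in totals, median -0.08; without the embryo at -15 or that at 0 min 22 were called higher. Cyt-c1, COX5B, ND-MLRQ and ND-B14.5B were the rises with the smallest p, by 0.78 to 1.28 on the log2 scale with TMM, and none was called with spike-in totals. Of the falls, ND-51 and ND-ACP of complex I had log2 fold changes of -1.51 and -1.33, SdhA of complex II -1.22, and ATPsyngamma of the ATP synthase -0.76 with TMM, the last a call that was lost without the embryo at 90 min. Set against the median over all genes, both lists lay above it by 0.75 to 0.98 on the log2 scale under each of the 3 scalings. A change of scaling moves all genes by about the same amount, so this likeness across scalings was close to fixed in advance.

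**Figure D5:**
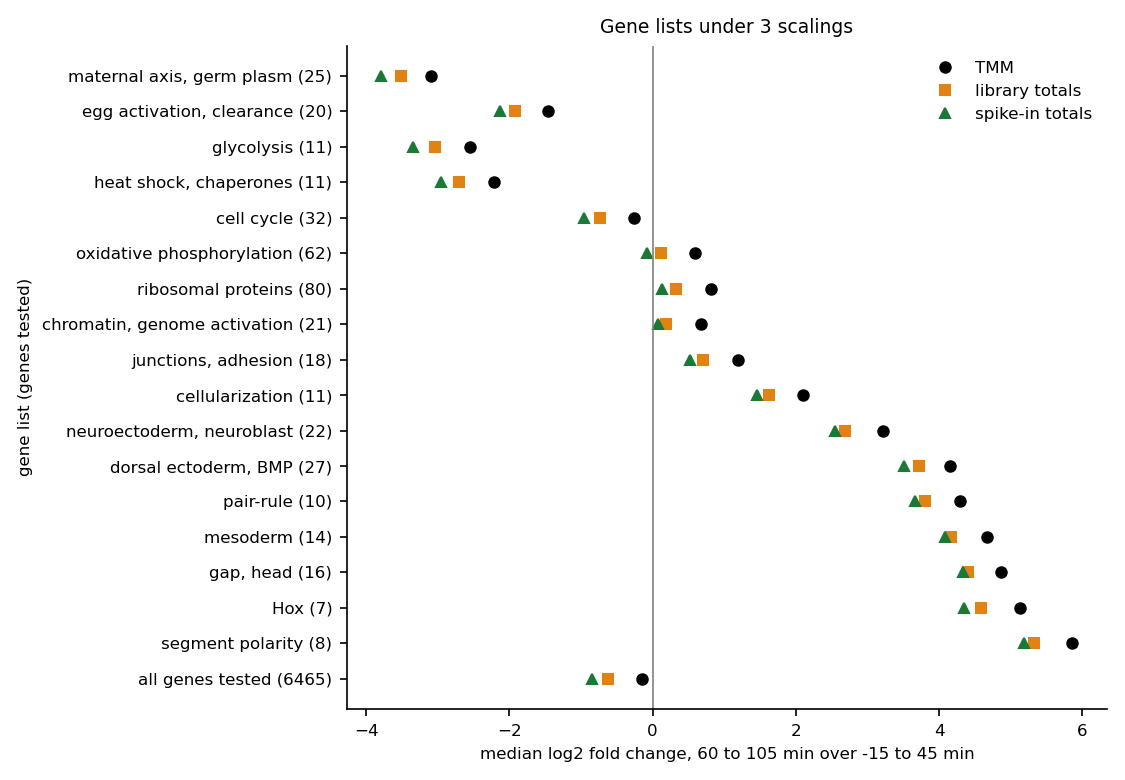
Median log2 fold change, later over earlier embryos (x axis), of each gene list (rows, with the number of genes tested), under TMM, library totals and spike-in totals. Scaling moves all lists by about the same amount. The maternal, egg activation, glycolysis and heat shock lists lie below 0 and the patterning lists above 0 under all 3, whereas oxidative phosphorylation has a median of 0.60 with TMM and -0.08 with spike-in totals.

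Within the earlier embryos a linear trend in labelled time was called for 302 of 6487 genes (4.66%), 58 (0.894%) rising and 244 (3.76%) falling. Of the 5 largest rises 4 are members of the cellularization list. nullo rose by 8.86 ± 1.58 (SE) on the log2 scale per 60 min, dunk by 8.40 ± 1.65, SNCF by 8.39 ± 0.86, bnk by 8.23 ± 1.57 and halo by 7.83 ± 1.31. The falling ones were DppIII, a dipeptidyl peptidase (-7.02 ± 1.13), sut1, a sugar transporter (-6.96 ± 0.94), ebd1, a cofactor of Wnt target transcription (-6.49 ± 0.83), P32 (-6.33 ± 1.21) and Pgi, a glycolytic isomerase (-6.08 ± 0.93), with edgeR adjusted p from 0.0025 to 0.0158 for all 10. SNCF had 0.437, 4.46, 69.5, 114 and 486 CPM and sut1 209, 183, 39.5, 10.8 and 0 CPM at -15 to 45 min. Without the embryo at 45 min 2 genes were called and none of them rose.

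Within the later embryos no trend was called by edgeR among 5948 genes (0.00%), with 110 genes below 0.05 before adjustment and also 0 called with DESeq2 size factors or spike-in totals. Without the embryo at 60 min 49 genes were called, 21 rising and 28 falling, and without that at 75 min 1. Over all 9 embryos a trend was called for 2341 of 6465 genes (36.2%), 1045 rising and 1296 falling, and leaving out 1 embryo moved the count between 1377 (without that at 0 min) and 2638 (without that at 60 min).

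The next embryos of the series were examined for the same genes. The library at 120 min held 3662 gene counts and was left aside. At 135, 150 and 165 min the 538 genes called at least 8-fold lower summed to 2729, 2598 and 2775 CPM, as low as at 60 to 105 min. The 293 genes called at least 8-fold higher summed to 67194 CPM at 135 min and 71966 CPM at 165 min, beside 65862, 39646, 54107 and 58146 CPM at 60, 75, 90 and 105 min, but to 9222 CPM at 150 min. The library at 150 min held 609408 gene counts, and the one at 135 min held 561108. At 135, 150 and 165 min osk stood at 5.35, 37.7 and 5.56 CPM, Hsp26 at 89.1, 64.0 and 25.0 CPM, hth at 2912, 348 and 1658 CPM and Tom at 3224, 149 and 2648 CPM. net, seen in all 4 later embryos, stood at 0, 0 and 16.0 CPM, and Sry-alpha at 42.8, 335 and 36.9 CPM. The embryo at 150 min was above both others for osk and Sry-alpha and below both for hth and Tom. These embryos entered no test.

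Genes that appeared or vanished almost wholly were counted with limits chosen after the data were seen. Of called genes, 44 had a mean of at least 20 CPM in the later embryos and at most 1 CPM in the earlier embryos, and 73 had a mean of at most 1 CPM in the later embryos and at least 20 CPM in the earlier embryos. By the Ensembl annotation of a newer build than that of the counts, 4 of 43 annotated genes that appeared (9.30%) and 5 of 70 that vanished (7.14%) had a single exon, beside 10.7% of all genes tested. The median gene span was 21855 bp among those that appeared, 2657 bp among those that vanished and 2702 bp over all genes tested. Of the 73 that vanished 31 had no name beyond a number, beside 10 of the 44 that appeared, 541 of the 1648 that fell and 2061 of all 6465 genes tested.

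Markers of tissues that form later or belong to the mother were examined as a check. Of 16 eggshell and yolk genes none passed the filter, and their summed level was 2.53 to 5.49 CPM in the later embryos and 1.12 to 3.94 CPM in the earlier embryos. Of 9 muscle genes only Tm1, a tropomyosin also used in other cells, was tested, with 889.8 to 1046 CPM in the later embryos, against 536 to 720.4 CPM in the earlier embryos. Tm1 rose by 1.08 on the log2 scale (edgeR adjusted p = 0.000209), but by 0.37 with spike-in totals, where it was not called. Mhc, the muscle myosin, had 0, 0, 0 and 0 CPM in the later embryos, against 0, 0, 0, 0 and 0.824 CPM in the earlier embryos. Of 9 neuron genes 4 were tested and 2 rose, elav, an RNA-binding protein of neurons, with 302, 66.4, 224 and 148 CPM in the later embryos, against 6.56, 0, 4.72, 7.19 and 0 CPM in the earlier embryos (log2 fold change 6.13 ± 0.82, edgeR adjusted p = 0.000182), and Syx1A, a syntaxin, with 354 to 575 CPM in the later embryos, against 173 to 215 CPM in the earlier embryos. Of 12 hemocyte and fat body genes 4 were tested, NimC4, LanA and apolpp were called higher, although apolpp lost its call in 7 of the 8 fits without 1 embryo that tested it, and crq (croquemort), a scavenger receptor, was lower, with 2.53, 10.1, 2.09 and 4.88 CPM in the later embryos, against 169.7, 225, 155, 242 and 134 CPM in the earlier embryos. crq fell by 4.77 ± 0.45 on the log2 scale (edgeR adjusted p = 2.69e-05). Of 96 cuticle genes 1 was tested and not called.

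Of the 185 genes named, 52 share exon bases with another gene in that annotation, 46 of them on the opposite strand, among them UGP, Got2, exu, osk, Jabba, Eno and Hsp27. The strand setting of the counting is not given in the sources used here. Whether reads over the shared bases went to such a gene, to its partner or to the ambiguous reads is therefore not known.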

How the data were processed

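CEL-Seq libraries of single Drosophila melanogaster embryos were sequenced in pooled lanes. The deposited table holds raw read counts per FlyBase gene and embryo, with 92 ERCC spike-ins and rows for reads assigned to no gene. The submitters' processing notes name CASAVA 1.8, Bowtie2 2.1.0, HTSeq 0.5.4p3 and the BDGP 5 genome build. Whether molecular identifiers were used is not given in the sources used here, so counts were taken as reads, and intervals and floors cover counting error only. Folds with such an interval, and lower bounds set by a floor, use counts summed over a group and divided by library totals, without TMM.

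Rows that name no gene stayed out of library sizes and tests. In the 9 embryos reads assigned to no feature took 9.89 to 17.3% of all reads, ambiguous reads 2.46 to 4.27% and unaligned reads 15.4 to 17.2%. No-feature reads took 16.6% ± 0.920 in the later embryos and 12.0% ± 1.29 in the earlier embryos (SD, n = 4 and 5), and ambiguous reads 2.76% ± 0.278 and 3.87% ± 0.275, each with an exact two-sided permutation p of 0.0159. Whether these shares bear on any gene's result was not tested. Of 15682 gene IDs, 15002 matched a symbol, and the rest held 8.73% of gene counts.

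Embryos were grouped by labelled time. Genes that passed edgeR's filterByExpr were compared with edgeR 4.0.16 (R 4.3.3): TMM scaling, quasi-likelihood F-test and Benjamini-Hochberg adjustment over all genes tested, called at an adjusted p under 0.05. Standard errors are the log2 fold change divided by the root of F. Trends used the same test with labelled time per 60 min. Python 3.11.15 with scipy 1.17.1 gave the permutation tests. The steps were tested on simulated counts with known changes in a set of well-expressed genes. That simulation does not cover genes at 0 in a group or the dependence of the results on scaling.

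The alternatives were DESeq2 1.42.0 size factors and Wald test, limma voom 3.58.1, spike-in or library totals, other filters, a 2-fold threshold, labelled time as a covariate, and leaving out each embryo in turn. The genes named are the 12 largest rises and 12 largest falls among called genes with a mean of at least 50 CPM in the higher group, a name and no overlap of groups, and up to 4 called members of each list with the smallest p in each direction. For the trends they are the 5 largest in each direction. Further list members, called or not, were chosen after their values were seen. Members and gene lists were chosen with earlier results of these data known.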

Additional observations from a re-analysis of the deposited data

Results flagged for a closer look

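In 53 of 374 groups of values examined (a gene or a library measure in the 4 later or the 5 earlier embryos), 1 embryo lay apart from the others of its group by more than Dixon's 95% critical value. For normally distributed values chance flags about 1 in 20 such groups. These groups hold many zeros and span labelled times, and the values of an embryo are not independent of each other. No excess over chance can therefore be read from the count. Some flags rest on very few reads, such as that of GIIIspla2, with 1 count in the later embryos.

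The embryo at 45 min was the one apart most often. It held the highest value of the earlier embryos for slam (549 CPM), halo (486), dunk (441), Sxl (396), Z600 (99.7), gt (90.6), tll (77.5), Kr (74.2), SoxN (60.2), eve (48.6), twi (47.0), kni (28.8) and dpp (20.6), and at lower levels for Abd-B (9.06), byn (3.30), lncRNA:bxd (3.30), Socs36E (2.47) and Mhc (0.824 CPM). It held the lowest value for Klp68D (24.7 CPM) and cbt (6.59 CPM), and the fewest genes detected at equal depth, 6661 beside a median of 7064 in the other earlier embryos. Its library was the smallest of the 9, with 1213557 gene counts.

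The embryo at 60 min held the highest value of the later embryos for spi (180 CPM), abd-A (121), pnr (70.2), en (69.2), Mef2 (59.1), Hsp70Ab (31.3) and raw (21.7 CPM). The embryo at 75 min was highest for smg (312 CPM), tll (192), bcd (98.0), mtrm (38.5), Dad (0.916) and GIIIspla2 (0.458), and lowest for Ama (117 CPM). The embryo at 90 min was highest for Sxl (1423 CPM beside a median of 171 in the other later embryos), and for stet (1.67), cort (1.67) and Klp68D (1.26), and that at 105 min for Tpi (11.0) and CAH2 (2.44 CPM).

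Among the earlier embryos, that at -15 min was highest for pdm2 (7.87 CPM) and lowest for Syx1A (173 CPM). The embryo at 15 min was highest for fzy (514 CPM), trn (28.7), stumps (2.57), bnl (1.29) and ems (0.858), and that at 30 min for ND-MLRQ (477 CPM), Dad (32.9), NimC4 (27.5), uif (1.80) and en (0.599 CPM).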

How the results depend on the processing

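No paired analysis was possible because each embryo is a separate animal at its own labelled time and no number links an embryo of one group to one of the other. Leaving out 1 embryo at a time gave 2690 to 3204 called genes, 1224 to 1456 higher and 1420 to 1780 lower in the later embryos. Spike-in totals gave 422 higher and 2485 lower, library totals 730 higher, and a 2-fold threshold 979 higher. Labelled time as a covariate gave 557 called genes, 275 higher and 282 lower. The cause was not tested for the scalings or the covariate. The covariate overlaps with the groups, which are a cut of labelled time. With the covariate 9 maternal axis, 3 egg activation, 3 glycolytic and 3 heat shock genes fell, and 3 ribosomal protein, 1 oxidative phosphorylation, 6 gap, 3 pair-rule, 6 segment polarity, 4 Hox, 3 mesoderm, 8 dorsal ectoderm, 5 neuroectoderm, 4 junction and 3 gut genes rose. Over the 9 embryos the trend counts ranged from 1377 to 2638 without 1 embryo (587 to 1218 rising, 790 to 1444 falling; the lowest without that at 0 min), and with spike-in totals were 317 rising and 2319 falling. Within -15 to 45 min they ranged from 2 to 333 (0 to 56 rising, 2 to 277 falling; 2 without the embryo at 45 min, 166 without that at 0 min, 188 without that at 15 min), and with spike-in totals were 695, of which 632 fell. Within 60 to 105 min they ranged from 0 to 49 (0 to 21 rising, 0 to 28 falling).

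The direction of a called gene turned for Not1 (-0.012) and N (-0.012) with spike-in totals, for nullo with limma voom (0.12), and with the time covariate for exu (0.21), BicC (0.73), Sry-alpha (-0.94) and Z600 (-0.19). The median log2 fold change of all genes turned to 0.17 with a filter of 1 count and to 0.19 with the DESeq2 Wald test, and with the covariate the medians turned for cell cycle (0.22), chromatin (-0.31) and cellularization genes (-0.94). Of 154 called genes named, 132 were called with spike-in totals, 146 with library totals, 150 with limma voom, 152 with the DESeq2 Wald test, 76 with the covariate and 148 to 151 without 1 embryo. Depth limits what can be said of genes at 0: the limit set by 3 counts over the group was 0.366 CPM in the later embryos and 0.294 CPM in the earlier embryos.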
